A study of Mus musculus with 6 samples.

Results

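Imprinted genes are expressed mainly or only from the copy inherited from a single parent, and many of them control growth before birth. Of these, 10 were followed through bone repair, namely Igf2, H19, Meg3, Dlk1, Peg3, Zim1, Plagl1, Mest, Grb10 and Cdkn1c. They were chosen by symbol, with earlier results of these data known, and are 10 of the 30406 genes that all 6 libraries list. All 10 were found under the same identifier in every library. To ask whether cells of the fracture callus contain transcripts of these genes that uninjured periosteum lacks, the genes were measured in single-nucleus RNA-seq of mouse tibial periosteum, the sheet of tissue on the outer surface of bone.

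The study comprised 2 libraries of uninjured periosteum, 2 libraries of periosteum with hematoma collected 3 days after a fracture, and 1 library each for days 5 and 7 post-fracture. Mice are labelled C57BL6 (C57BL/6ScNj in the study's methods), and no altered allele or treatment is named for any group. According to the methods they were 12 weeks old, with males and females mixed, and the fracture was an open, non-stabilized cut through the tibial mid-diaphysis. Each library is a pool, of 4 mice for uninjured and of 4 to 9 mice for fractured tibias, so that the spread between libraries is not a spread between single animals and p-values refer to these pools. Nuclei were sorted on a DNA stain and sequenced with the 10x Genomics 3′ kit, in which the unit is the UMI, a tag that marks 1 captured transcript. The chemistry does not tell the maternal from the paternal copy, so every value below is a gene's total level and not its imprinting.

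In the mouse, Igf2, Dlk1, Peg3, Plagl1 and Mest are transcribed from the paternal copy, whereas H19, Meg3, Zim1, Cdkn1c and, in most tissues, Grb10 are transcribed from the maternal copy. Igf2 encodes a growth factor of the fetus and H19 the noncoding RNA next to it, which shares its enhancers. Dlk1 encodes a membrane protein related to Notch ligands that holds back fat cell differentiation, and Meg3 is the noncoding RNA of the same locus. Peg3, Zim1 and Plagl1 encode zinc-finger proteins, Mest encodes a protein of the hydrolase family named for its expression in embryonic mesoderm, Grb10 an adaptor that restrains signalling by insulin and IGF receptors, and Cdkn1c the cell cycle inhibitor p57. Most of these genes are abundant in the embryo, including its cartilage and muscle, and decline after birth.

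The genes lie in few places. According to GENCODE release M21 on GRCm38, 5 of the 10 are on chromosome 7. H19 and Igf2 are separated by 72.6 kb, Zim1 and Peg3 by 7.44 kb, and Dlk1 and Meg3, on chromosome 12, by 77.7 kb. RefSeq places 9 mature miRNAs inside the members, no pair of which has the same seed. The miRNAs of H19 and Mest are shown because these were the members with the least RNA in uninjured stromal nuclei among those the tests could take, with the seed, bases 2 to 8, in capitals. Mature miRNAs are too short for this assay and were not measured.
mmu-miR-675-5p (H19, chr7:142577112-142577133, minus strand): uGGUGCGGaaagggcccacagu
mmu-miR-675-3p (H19, chr7:142577078-142577099, minus strand): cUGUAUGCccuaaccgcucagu
mmu-miR-335-5p (Mest, chr6:30741314-30741336, plus strand): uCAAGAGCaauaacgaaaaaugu
mmu-miR-335-3p (Mest, chr6:30741354-30741375, plus strand): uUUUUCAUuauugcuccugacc

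Plagl1 protein binds the palindrome GGGGCCCC, and this sequence was looked for in the RefSeq promoter windows of the members, from 250 bases before to 50 bases after each start (GRCm38.p6). Of the 15 windows, which cover 8 members, 1 contained it, in Peg3, 201 bases before the start. It is shown because Peg3 was among the genes whose pattern was most like that of Plagl1, with the match in capitals.
Peg3 promoter (chr7:6730602-6730631, minus strand): gactctgcttgGGGGCCCCtaacactgact
Over all 32851 windows of this length, 354 (1.08%) contained the sequence. The match describes letters in a window and no binding was measured.

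After the nucleus filter of the study's methods and the removal of muscle nuclei, 6129 nuclei of 13551 barcodes remained, in 23 clusters that were named from marker genes. The 10 members were not among the genes used for clustering. Stromal nuclei, the main object here, numbered 2985. They comprised 193 SSPC-like nuclei (skeletal stem/progenitor cells), 810 fibroblast-like, 930 IIFC-like (injury-induced fibrogenic cells), 351 osteoblast-like, 418 chondrocyte-like and 283 tendon-like nuclei. All markers were highest in the population they name for SSPC-like, osteoblast-like and chondrocyte-like nuclei (7 of 7, 6 of 6 and 6 of 6), whereas this held for 3 of 6 IIFC and 3 of 8 fibroblast markers, the lowest shares among the stromal names. In library order (uninjured 1 and 2, day 3 replicates 1 and 2, day 5, day 7), stromal nuclei numbered 125, 399, 142, 300, 1194 and 825, with median depths of 1489, 2563, 2361, 5223, 3904 and 1429 UMIs. Their makeup varied between libraries. Fibroblast-like nuclei were 64, 45.1, 35.9, 40.7, 20.9 and 15.5% of them. IIFC-like nuclei were 6.4, 4.51, 39.4, 35.7, 38.2 and 34.5% of them. Chondrocyte-like nuclei were 1.6, 0.752, 0, 1.67, 13.7 and 29.6% of them. In the stromal sums alone, a change in makeup and a change in level cannot be told apart. Levels are given as CPM, a gene's UMIs per 1000000 UMIs of the nuclei concerned, in the same library order, with exact Poisson 95% intervals that cover counting error only.

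Both uninjured libraries and day 3 replicate 2 were counted against a gene list of 31055 genes (here list A), and day 3 replicate 1, day 5 and day 7 against longer lists (list B). Days 5 and 7 therefore differ from uninjured periosteum in both time and gene list, and the 2 cannot be told apart. Day 3 replicate 2 against uninjured is the only contrast within list A. The stromal sums also held RNA of other cell types. The summed level of 7 immune markers in them was 13.1, 12.4, 133, 629, 84.4 and 34.7 CPM, that of 6 endothelial markers 166, 78.2, 17.7, 36.98, 49.8 and 40.5 CPM and that of 6 muscle markers 459.7, 687, 499, 350.4, 81.9 and 471 CPM.

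Stromal nuclei after fracture contained more RNA of H19 than stromal nuclei of uninjured periosteum, and H19 was the only member whose difference passed the test. Mest, Plagl1, Grb10 and Meg3 were also higher in each of the 4 post-fracture libraries than in either uninjured library, without passing it. Of all genes tested, 6.55% were called and 15.1% were likewise higher in every post-fracture library. In simulated data this test called 0% of genes with a log2 fold change of 1 and 46.9% of those with 2. Peg3 and Zim1 were lowest at day 3 and highest at day 7. Igf2 and Dlk1 were near the limit of detection, and Cdkn1c was low throughout.

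**Figure D1:**
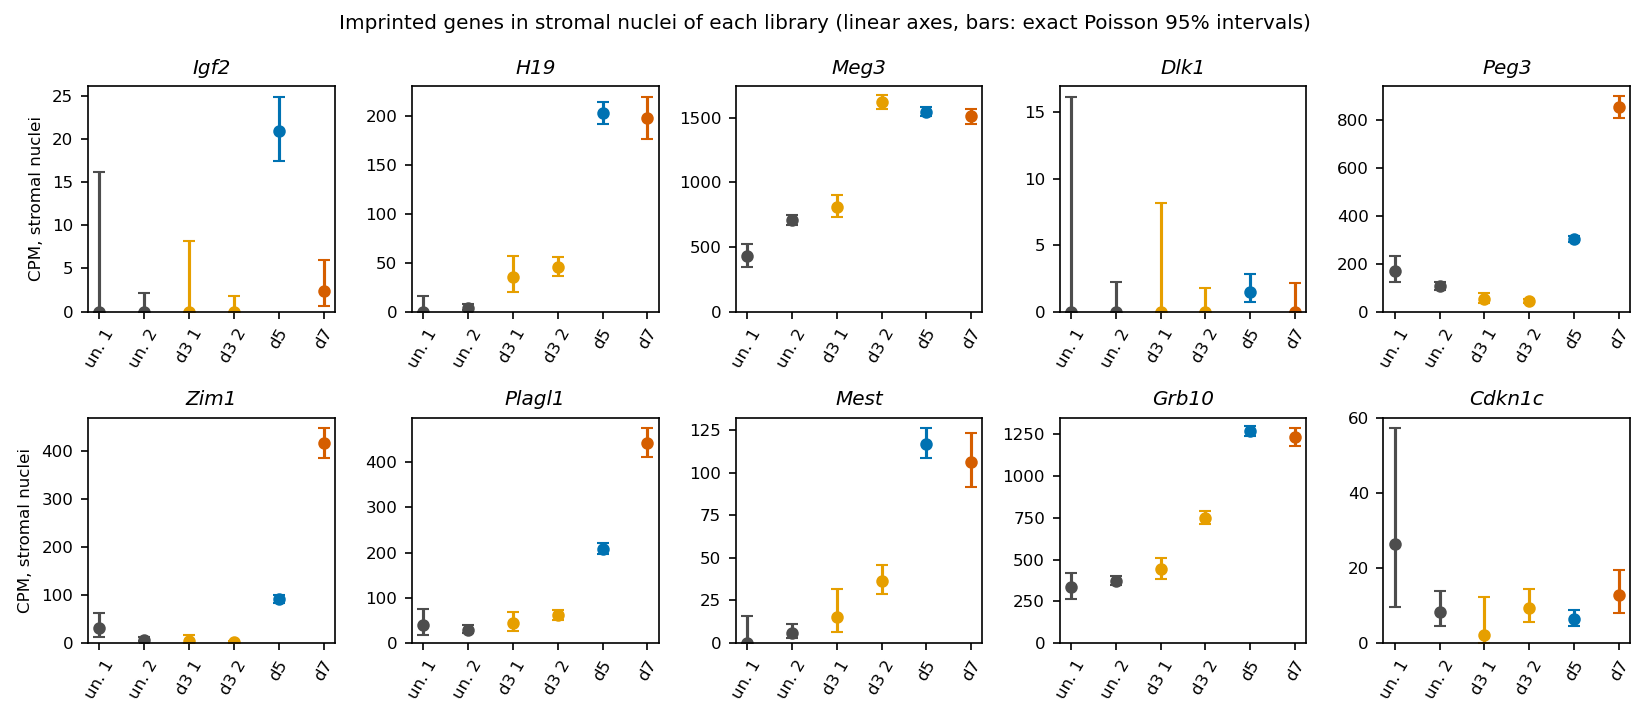
Level of each of the 10 imprinted genes in stromal nuclei (y axis, CPM, linear and starting at 0, a separate scale for each gene) in the 2 uninjured (un.), 2 day 3 (d3), day 5 (d5) and day 7 (d7) libraries (x axis). Points are libraries and bars exact Poisson 95% intervals. H19 goes from 0 and 3.56 CPM in uninjured to 203 and 198 CPM at days 5 and 7, and Peg3 and Zim1 are lowest at day 3.

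H19 (ENSMUSG00000000031, chromosome 7 from 142575529 to 142578143, minus strand) was at 0, 3.56, 35.3, 45.3, 203 and 198 CPM in stromal nuclei, from 0, 6, 16, 93, 1215 and 337 UMIs. The uninjured libraries were at or near 0, the day 3 libraries intermediate and the later libraries highest, and the groups did not overlap. The means were 1.78 ± 2.51 CPM (SD, n = 2) in uninjured and 120.4 ± 92.6 CPM (SD, n = 4) post-fracture, and edgeR's quasi-likelihood test gave a log2 fold change of 5.46 (SE 1.2, Benjamini-Hochberg adjusted p = 0.0299). The call was lost without either uninjured library and without day 5, where adjusted p was 0.171 without uninjured replicate 1, 0.216 without replicate 2 and 0.0571 without day 5. With 1 library left out, the log2 fold change ran from 5.03 without day 7 to 11.1 without uninjured replicate 2. The latter was fitted against a single library with 0 UMIs and is no measure of size. Within list A, day 3 replicate 2 against both uninjured libraries gave a log2 fold change of 3.76 (edgeR adjusted p = 0.00125), where 4.16% of genes were called higher. This fit has 1 fractured library, and its spread comes from the uninjured pair alone. Within the libraries counted with Cell Ranger 7.1.0 (uninjured replicate 2 and both day 3 libraries) it was 3.42 (edgeR adjusted p = 0.00534), with 1 uninjured library and a spread from the day 3 pair alone. In both fits the lone library was assumed to vary like the pair.

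H19 was also found outside stromal nuclei. In immune-like nuclei it was at 0, 0, 10.4, 13.7, 33.6 and 27.5 CPM, below the stromal level of every post-fracture library. At 500 UMIs per nucleus, 0, 0.251, 2.11, 2.33, 8.64 and 7.55% of stromal nuclei and 0, 0, 1.35, 0.699, 2.55 and 1.42% of immune-like nuclei had an H19 UMI, where median depths before thinning were 593 to 3294 UMIs in immune-like nuclei. At day 3 these shares were too close to tell a stromal signal from free RNA by this measure (3 of 142 stromal against 2 of 148 immune-like nuclei in replicate 1), whereas at days 5 and 7 they stood apart. Before thinning, the stromal shares were 0, 1.25, 6.34, 15.7, 35.6 and 20%. Muscle nuclei, which were removed, held 8.58, 6.5, 41.1, 84.8, 152 and 129 CPM of H19, more than stromal nuclei in the uninjured and both day 3 libraries and less at days 5 and 7. The summed muscle markers in stromal nuclei were lowest at day 5 and, at day 7, within the range of the uninjured libraries. The part of muscle RNA in stromal H19 was not tested.

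Igf2 (ENSMUSG00000048583, chromosome 7 from 142650766 to 142666816, minus strand) was counted in stromal nuclei only at day 5 (125 UMIs, 20.9 CPM, interval 17.4 to 24.9) and day 7 (4 UMIs, 2.35 CPM, interval 0.64 to 6.02). It was too low for the test. The gene lists bear on it directly. List A contains Gm49394 (ENSMUSG00000115302, chromosome 7 from 142650769 to 142669942, minus strand), which covers 62.8% of the exonic bases of Igf2 on the same strand, so that reads from the shared bases cannot be assigned to either gene. List B lacks it. Gm49394 itself had 0 UMIs in all 3 list A libraries. Over all barcodes, Igf2 was at 0.667, 0.761 and 0.336 CPM in the list A libraries (uninjured 1 and 2 and day 3 replicate 2) and at 4.77, 26.0 and 6.0 CPM in the list B libraries (day 3 replicate 1, day 5 and day 7). Igf2 can hence be compared only among the list B libraries. Stromal Igf2 at day 5 was 3.15-fold the floor of 3 UMIs in day 3 replicate 1, which had none. That ratio is no lower bound, since the interval of day 3 replicate 1 reached 8.15 CPM. Day 3 replicate 1 was counted with Cell Ranger 7.1.0 and days 5 and 7 with 6.0.0. Igf2 was 8.90-fold higher at day 5 than at day 7. Among day 5 populations, Igf2 was at 39.6 CPM in fibroblast-like, 32.7 in tendon-like, 15.2 in chondrocyte-like and 14.5 in IIFC-like nuclei, with 10.3 in immune-like and 57.05 in the removed muscle nuclei. Whether uninjured stromal nuclei contain Igf2 cannot be read from these libraries.

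Meg3 (ENSMUSG00000021268, chromosome 12 from 109541001 to 109571726, plus strand) was at 429, 706, 813, 1623, 1549 and 1512 CPM. It was present in uninjured stromal nuclei, and every post-fracture library was above both of them, although day 3 replicate 1 was close to uninjured replicate 2. The log2 fold change was 1.33 (SE 0.42, edgeR adjusted p = 0.0985). Meg3 shares bases with Gm26906 of list A, on the opposite strand. Dlk1 (ENSMUSG00000040856, chromosome 12 from 109452823 to 109463336, plus strand), the protein-coding gene of the same locus, had 9 UMIs in stromal nuclei, all at day 5 (1.5 CPM, interval 0.688 to 2.86). No stromal UMI was counted in the other libraries, where 3 UMIs would have been 1.46 to 13.1 CPM, so that the day 5 level lay near or under what these libraries could show.

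Mest (ENSMUSG00000051855, chromosome 6 from 30723547 to 30748465, plus strand) was at 0, 5.93, 15.5, 36.5, 117 and 106 CPM. Uninjured nuclei held 0 and 10 UMIs of it and the groups did not overlap. The log2 fold change was 3.98 (SE 1.06, edgeR adjusted p = 0.0603), just outside the threshold. It passed without either day 3 library (adjusted p = 0.0334 and 0.0339) and missed the threshold when 1 of the other 4 libraries was left out (adjusted p from 0.0767 to 0.252). The log2 fold change then ran from 3.62 to 10.3, the latter against a single library with 0 UMIs. Within list A, with 1 fractured library and a spread from the uninjured pair alone, it was 2.78 (edgeR adjusted p = 0.025).

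The zinc-finger genes followed a different course. Peg3 (ENSMUSG00000002265, chromosome 7 from 6703892 to 6730431, minus strand) was at 171, 107, 53.02, 43.8, 303 and 854 CPM, lower at day 3 than in either uninjured library and higher at days 5 and 7. Its neighbour Zim1 (ENSMUSG00000002266, chromosome 7 from 6671269 to 6696450, minus strand), which lies downstream of Peg3 on the same strand, was at 30.6, 6.52, 4.42, 1.95, 91.96 and 416 CPM, with the same order of groups but on 2 UMIs in day 3 replicate 1 and 4 in replicate 2. Plagl1 (ENSMUSG00000019817, chromosome 10 from 13060504 to 13131694, plus strand) was at 39.4, 29.6, 44.2, 62.3, 208 and 443 CPM, highest at day 7 and without a lower value at day 3. The days differed in direction, and the log2 fold changes over all post-fracture libraries had wide errors, 1.42 for Peg3 (SE 1.17, edgeR adjusted p = 0.527), 3.55 for Zim1 (SE 2.08, adjusted p = 0.357) and 2.7 for Plagl1 (SE 1.03, adjusted p = 0.163). Without day 7 the values were 0.032 for Peg3 (adjusted p = 0.99), 1.49 for Zim1 (adjusted p = 0.634) and 1.71 for Plagl1 (adjusted p = 0.194).

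Of the inhibitors, Grb10 (ENSMUSG00000020176, chromosome 11 from 11930508 to 12038683, minus strand) was at 337, 373, 442, 750.4, 1269 and 1234 CPM. All post-fracture libraries were above uninjured, and days 5 and 7 above day 3. The log2 fold change was 1.48 (SE 0.5, edgeR adjusted p = 0.122). Cdkn1c (ENSMUSG00000037664, chromosome 7 from 143458339 to 143461050, minus strand) was at 26.3, 8.3, 2.21, 9.25, 6.52 and 12.9 CPM, from 1 to 39 UMIs per library. Its groups overlapped, and the log2 fold change was -0.7 (SE 0.75, adjusted p = 0.635), with the sign turning without uninjured replicate 1 (0.048).

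Over all members, 8 of 10 could be tested post-fracture, Igf2 and Dlk1 being too low, and 1 was called, where 6.55% of the 11718 genes tested were called and 1.99% were called higher. The median log2 fold change of the 8 members was 2.09, against 0.07 over all genes. H19 and Mest, with few or no UMIs in the uninjured libraries, entered the test through their post-fracture counts. The members were also chosen with earlier results of these data known, so these medians are a description. 5 members (H19, Meg3, Plagl1, Mest and Grb10) did not overlap between groups, higher post-fracture, as did 15.1% of all genes tested. The count of called members depended on day 3. Without the day 3 libraries, days 5 and 7 against uninjured, 7 of the 8 members were called, all higher, where 5.43% of the genes tested were called higher and 6.3% lower. In that fit the log2 fold change was 6.21 for H19, 4.67 for Mest, 4.64 for Zim1, 3.52 for Plagl1, 2.32 for Peg3, 1.98 for Grb10 and 1.59 for Meg3, with edgeR adjusted p from 0.000554 to 0.0302. This contrast crosses the gene lists for every library and takes its spread from days 5 and 7 as if they were replicates. DESeq2 on all 6 libraries called 5 members (H19, Meg3, Plagl1, Mest and Grb10), where it called 4.45% of genes higher and 5.75% lower.

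**Figure D2:**
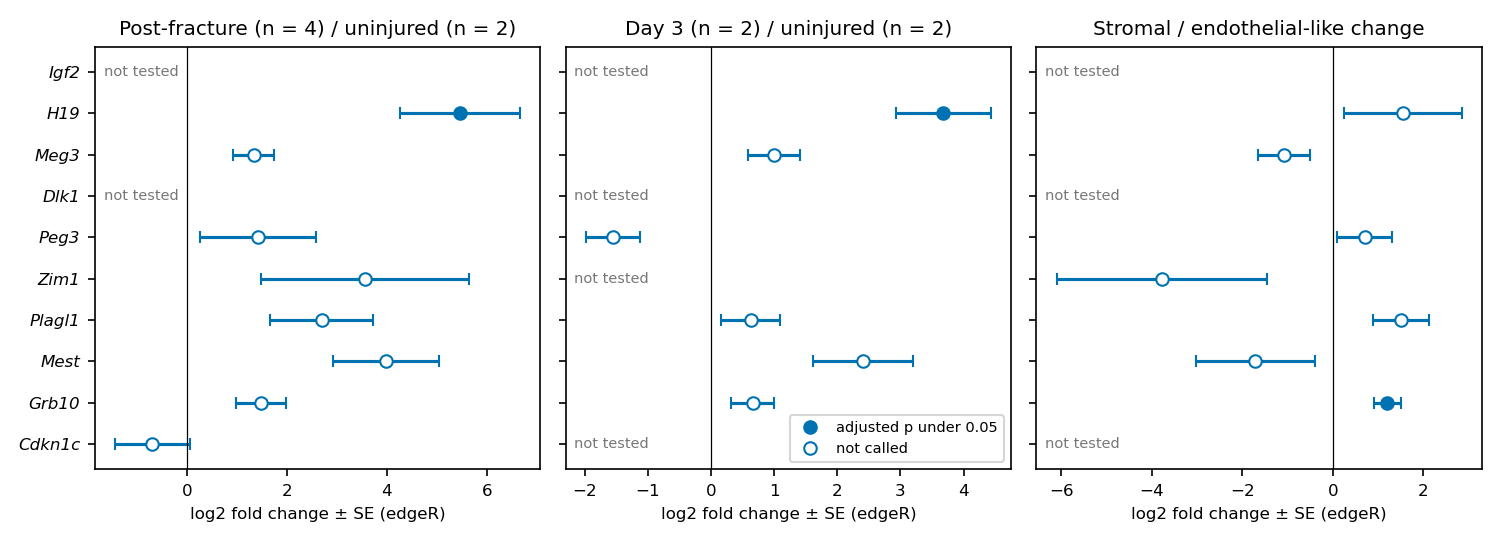
Log2 fold changes (x axis) with standard errors from edgeR for each member (y axis) in stromal nuclei post-fracture against uninjured, at day 3 against uninjured, and for the difference between the stromal and the endothelial-like change. Filled points have an adjusted p under 0.05, which are H19 in the first and second panels (5.46 and 3.68) and Grb10 in the third (1.21), and members without a point were too low for the test.

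At day 3, the only post-fracture day with replicate libraries, 6 members could be tested (not Igf2, Dlk1, Zim1 and Cdkn1c) and 1, H19, was called, where 8.98% of the 9972 genes tested were called, 3.8% higher and 5.17% lower. This test shares all of its libraries with the previous comparison. H19 was at 40.3 ± 7.01 CPM (SD, n = 2) and gave a log2 fold change of 3.68 (SE 0.75, edgeR adjusted p = 0.0156), a call that was lost without day 3 replicate 2 (adjusted p = 0.228). Peg3 was at 48.4 ± 6.52 CPM at day 3 against 139 ± 45.3 CPM in uninjured (SD, n = 2 each), a log2 fold change of -1.55 (SE 0.43, adjusted p = 0.0506) at the edge of the threshold. Within list A, Peg3 was called lower with a log2 fold change of -1.77 (adjusted p = 0.0189), where 4.75% of genes were called lower, in a fit with day 3 replicate 2 as the only fractured library and a spread from the uninjured pair alone. With 1 library left out, adjusted p for Peg3 ran from 0.0189 to 0.227. Mest gave 2.41 (adjusted p = 0.0974), Meg3 1.0 (adjusted p = 0.189), Grb10 0.66 (adjusted p = 0.308) and Plagl1 0.63 (adjusted p = 0.504). The members other than H19 were thus not called at day 3, on 2 libraries against 2. In simulated data this test called 0% of genes with a log2 fold change of 1 and 40.6% of those with 2.

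The levels were next compared between populations. Populations were defined on the same nuclei and days 5 and 7 have 1 library each, so these values are a description without a test. Chondrocyte-like nuclei, nearly all from days 5 (164 nuclei) and 7 (244 nuclei), held more Peg3, Zim1 and Plagl1 than any other stromal population of the same libraries, and Zim1 was among the 10 leading genes of their cluster. Peg3 was at 1130.4 CPM at day 5 (interval 1063 to 1201) and 2113 CPM at day 7 (interval 1995 to 2236), where the other stromal populations ranged from 129 to 269.8 CPM. Zim1 was at 457 and 1056 CPM, against 9.84 to 269.8. Plagl1 was at 690.0 and 945 CPM, against 61.7 to 429.7. Intervals of the chondrocyte-like values did not overlap those of another stromal population of the same library. Grb10 was at 1755 and 1753 CPM in chondrocyte-like nuclei, next to 1632 and 1197 in fibroblast-like nuclei, so that at day 5 these 2 populations were close.

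**Figure D3:**
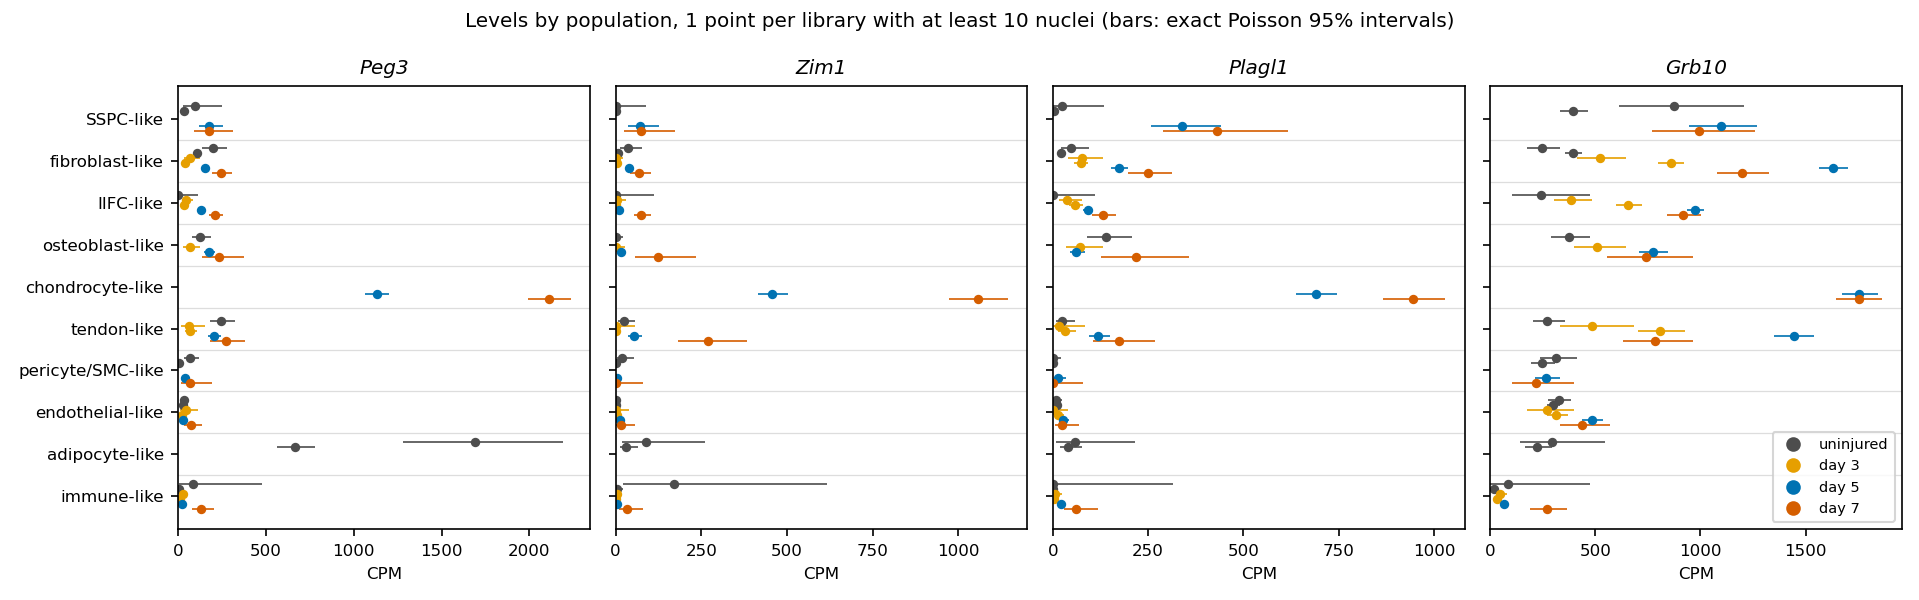
Levels of Peg3, Zim1, Plagl1 and Grb10 (x axis, CPM, linear, starting at 0) in each population (y axis). Each point is a library with at least 10 nuclei of that population, coloured by day, and bars are exact Poisson 95% intervals. The day 5 and day 7 chondrocyte-like points of Peg3 (1130.4 and 2113 CPM) stand apart from the other stromal populations, and the uninjured adipocyte-like points of Peg3 are the other high values.

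Shares of nuclei with a UMI were set beside those of immune-like nuclei. Whether UMIs in immune-like nuclei come from free RNA was not tested. At 500 UMIs per nucleus, 47.6% of chondrocyte-like nuclei had a Peg3 UMI at day 5 and 58.02% at day 7 (exact binomial 95% intervals 39.7 to 55.5% and 51.5 to 64.3%), against 1.28 and 9.22% of immune-like nuclei. Median depths before thinning were 4544 and 1589 UMIs in chondrocyte-like and 1504 and 675 UMIs in immune-like nuclei, and the unthinned Peg3 shares of chondrocyte-like nuclei were 86.6 and 84.8%. Zim1 was found in 15.9 and 32.5% of chondrocyte-like nuclei (immune-like 0 and 2.84%) and Plagl1 in 25 and 30.04% (immune-like 0.912 and 3.55%).

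The chondrocyte-like nuclei weighed on the stromal sums. Without them, stromal Peg3 was at 173, 107, 53.02, 43.5, 152 and 225 CPM, with day 5 between the uninjured libraries and day 7 above both. Zim1 was then at 31.00, 6.55, 4.42, 1.98, 25.5 and 96.00 CPM and Plagl1 at 39.9, 29.8, 44.2, 63.3, 121 and 192 CPM, still highest at day 7. In the SSPC-like, fibroblast-like and IIFC-like nuclei alone, the post-fracture log2 fold change was -0.048 for Peg3 (edgeR adjusted p = 0.981), against 1.42 over all stromal nuclei. H19 was still called in these nuclei (5.09, edgeR adjusted p = 0.0273), and so was Meg3 (1.72, adjusted p = 0.0411). The share of all genes called in this fit is not given, so these calls cannot be set beside it. Only 2 and 3 uninjured nuclei were chondrocyte-like, too few for a level.

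Outside the stroma, Peg3 was at 1691 and 666 CPM in adipocyte-like nuclei of the uninjured libraries (15 and 23 nuclei), and the later libraries held too few of these nuclei for a level. Osteoclast-like nuclei had 407 CPM at day 7 (17 UMIs) and 0 at day 5. Immune-like nuclei were at 85.3, 3.68, 24.3, 11.98, 20.6 and 131 CPM, highest at day 7. Endothelial-like nuclei ranged from 19.7 to 71.8 CPM.

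Meg3 had its highest levels elsewhere than the zinc-finger genes. In SSPC-like nuclei it was at 873 and 365 CPM in uninjured and at 4372 and 4712 CPM at days 5 and 7. In pericyte/SMC-like nuclei (pericytes and smooth muscle cells) it was at 42.5 and 238 CPM in uninjured and at 4157 and 4849.8 CPM at days 5 and 7 (intervals 3931 to 4392 and 4235 to 5528). The later values were several-fold above the uninjured ones in both populations, and these pairs cross the gene lists. After thinning to 500 UMIs, a Meg3 UMI was found in 3.23 and 6.35% of the uninjured pericyte/SMC-like nuclei and in 74.03 and 75.8% of those of days 5 and 7, at median depths of 1428, 4025, 2807 and 1079 UMIs. In immune-like nuclei the share never exceeded 5.67%, and the level was 85.3, 51.5, 20.8, 44.8, 127 and 103 CPM. The change of pericyte/SMC-like nuclei was not tested, since day 3 had 4 and 9 of them.

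Among the other stromal nuclei, Meg3 was at 324, 707, 503, 1874, 2368 and 1799 CPM in fibroblast-like nuclei and, from uninjured replicate 2 onwards, at 361, 965, 1812, 1720.0 and 1596 CPM in IIFC-like nuclei. Osteoblast-like nuclei were lower than either at days 5 and 7, with 225 and 397 CPM, and endothelial-like nuclei lower still, with 105 and 128 CPM. 1 IIFC-like cluster of shallow nuclei (median 683 UMIs) had Meg3 among its leading genes. Without that cluster, IIFC-like nuclei were at 1652 and 1621 CPM at days 5 and 7, close to the values with it.

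**Figure D4:**
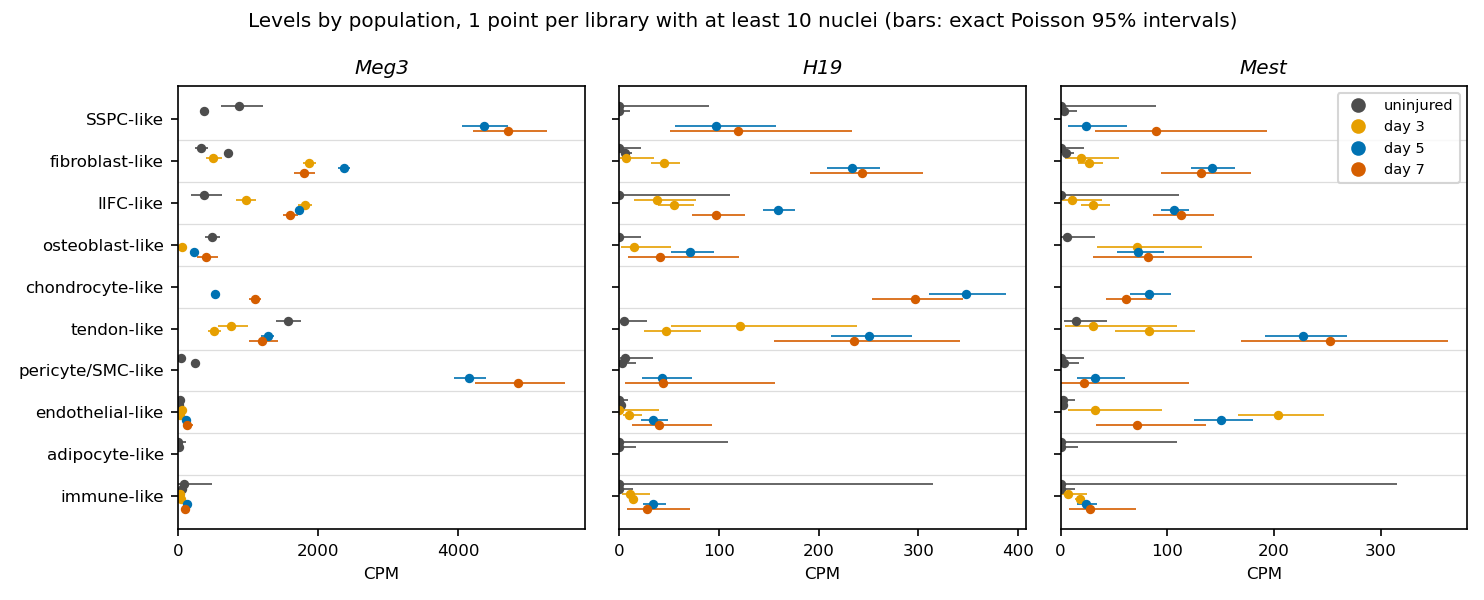
Levels of Meg3, H19 and Mest (x axis, CPM, linear, starting at 0) in each population (y axis), with 1 point per library with at least 10 nuclei, coloured by day, and exact Poisson 95% intervals. Meg3 is highest in SSPC-like and pericyte/SMC-like nuclei of days 5 and 7 (4157 to 4849.8 CPM), and the highest Mest level in endothelial-like nuclei is 203 CPM, in day 3 replicate 2.

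H19 was spread over the stroma. At day 5 it was at 348 CPM in chondrocyte-like, 250.4 in tendon-like, 234 in fibroblast-like, 159.6 in IIFC-like, 97.03 in SSPC-like and 71.2 in osteoblast-like nuclei. At day 7 chondrocyte-like nuclei were again highest (296 CPM, interval 253 to 345) and osteoblast-like nuclei lowest (41.1 CPM, 3 UMIs, interval 8.48 to 120). The chondrocyte-like interval overlapped those of fibroblast-like (243 CPM) and tendon-like nuclei (235 CPM). The osteoblast-like interval included the IIFC-like (96.9 CPM) and SSPC-like values (119 CPM). Fibroblast-like and tendon-like nuclei did not differ beyond their intervals on either day. In fibroblast-like nuclei, which all 6 libraries contain, H19 was at 0, 5.45, 6.29, 44.5, 234 and 243 CPM. With these nuclei alone the post-fracture log2 fold change was 4.97 (edgeR adjusted p = 0.0534), just outside the threshold.

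Mest was found in stromal and endothelial-like nuclei. In endothelial-like nuclei it was at 2.37, 2.5, 32.5, 203, 151 and 71.8 CPM, highest at day 3 replicate 2 (103 UMIs), while the stromal level was highest at days 5 and 7. In tendon-like nuclei it was at 227 and 252 CPM at days 5 and 7, the highest stromal values of those days, with an interval that overlapped that of fibroblast-like nuclei at day 7. Chondrocyte-like nuclei had 82.4 and 61.7 CPM, below fibroblast-like nuclei (142 and 131). Immune-like nuclei held 0, 0, 6.94, 17.7, 23.4 and 27.5 CPM.

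Cdkn1c, whose protein is a known product of maturing cartilage cells, was at 14.1 and 29.98 CPM in chondrocyte-like nuclei (13 and 17 UMIs), with 18.2 CPM in SSPC-like nuclei at day 5 (3 UMIs) and less in the other stromal populations of these days. At day 7 its interval in chondrocyte-like nuclei (17.5 to 48.00) overlapped that of uninjured stromal nuclei of replicate 1 (9.64 to 57.2).

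Whether the change after fracture differed between stromal and endothelial-like nuclei was tested with the library as a block. Grb10 was the only one of the 7 members tested that was called, where 5.06% of 10220 genes were called, 2.1% with a positive and 2.95% with a negative difference. In endothelial-like nuclei Grb10 was at 328, 301, 270.5, 316, 486 and 439 CPM, so that its stromal increase exceeded the endothelial-like one by 1.21 on the log2 scale (SE 0.31, edgeR adjusted p = 0.0251). Leaving out either uninjured library, day 5 or day 7 ended the call, with adjusted p of 0.162, 0.0686, 0.0798 and 0.0618. Plagl1 had a difference of 1.51 (adjusted p = 0.221) and H19 of 1.55 (adjusted p = 0.669). For Mest the difference was -1.71 (SE 1.31, adjusted p = 0.633), with a sign that turned without uninjured replicate 2 (3.82).

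Nuclei that held several members at a time were rare before fracture. Each nucleus was thinned to 1000 UMIs and the members other than Meg3, 9 genes, were counted. Nuclei with 3 or more of them made up 0, 0.325, 0.725, 0.704, 11.6 and 26.9% of stromal nuclei, 0 and 1 nuclei in the uninjured libraries and 126 and 147 at days 5 and 7. Chondrocyte-like nuclei were 59 of these 126 nuclei and 115 of these 147. Among chondrocyte-like nuclei the share was 40.1% at day 5 (of 147 nuclei) and 62.2% at day 7 (of 185). It was 9.27 and 5.41% in fibroblast-like and 7.07 and 7.1% in IIFC-like nuclei, and 9.17 and 25.5% in tendon-like nuclei. No immune-like nucleus of the 5 libraries with enough of them and 1 endothelial-like nucleus (day 5) reached 3.

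**Figure D5:**
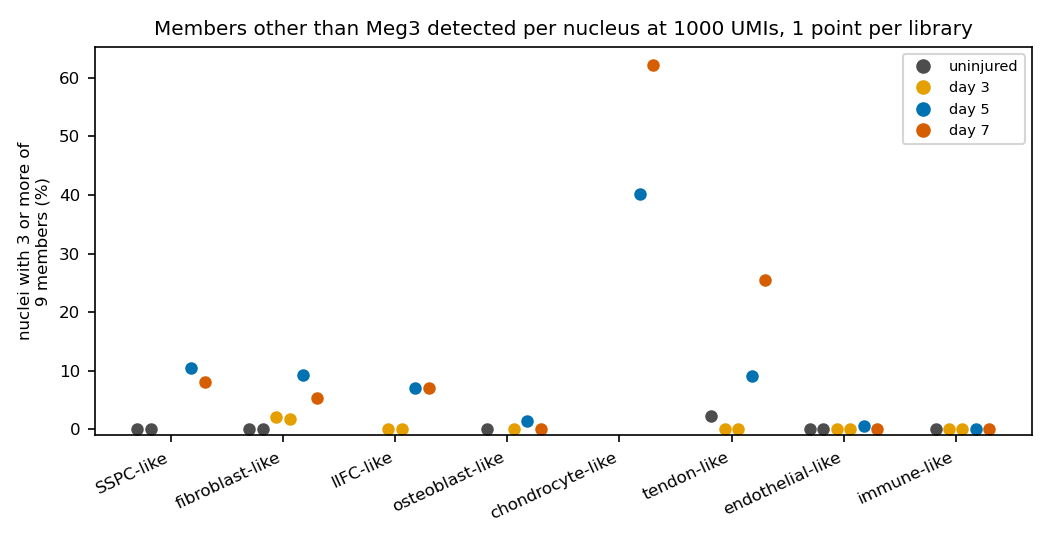
Percent of nuclei with UMIs of 3 or more of the 9 members other than Meg3 (y axis) after thinning to 1000 UMIs, by population (x axis), with 1 point per library coloured by day. Chondrocyte-like nuclei reach 40.1 and 62.2%, tendon-like nuclei of day 7 25.5%, and immune-like nuclei are at 0 in every library shown.

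Members were also compared between dividing and other stromal nuclei. Nuclei with UMIs of at least 2 of 6 mitotic genes numbered 0, 2, 35, 84, 145 and 25 in the 6 libraries, with a further 5, 10, 24, 71, 137 and 47 nuclei 1 gene short of this limit. Cycling nuclei were deeper (median 6989 against 3569 UMIs at day 5). H19 was higher in cycling than in other nuclei in 3 of the 4 post-fracture libraries. It was at 69.6 against 16.97 CPM in day 3 replicate 1, 275 against 187 at day 5 and 249 against 195 at day 7. In day 3 replicate 2 it was lower (41.4 against 47.2). Day 3 replicate 1 held only 16 stromal H19 UMIs in all. Whether cycling and other nuclei differed in population makeup was not tested. Meg3 was lower in cycling nuclei of all 4 libraries, from 664 against 893 CPM in day 3 replicate 1 to 1276 against 1611 at day 5. Cdkn1c, an inhibitor of division, was likewise lower in all 4, but on 0 to 6 UMIs in cycling nuclei, and the other members apart from Dlk1 were higher in some libraries and lower in others.

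To see which genes had patterns most like the members, log2 levels (10 CPM added) were correlated over 38 sums of a population in a library with at least 30 nuclei. The sums share libraries and populations, so the coefficients are a description. The gene most like Peg3 among 6990 was its neighbour Zim1 (Pearson's r = 0.86), followed by Adk (0.86) and Klhl13 (0.83). Zim1 was next most like the cartilage genes Matn3 (0.85) and Col2a1 (0.82), and Plagl1 most like Gm13832 (0.82), Peg3 (0.81) and Nrk (0.81). The genes most like Meg3 were Mirg (0.91), a noncoding gene of the same imprinted locus, Enox1 (0.91) and Sh3rf3 (0.87). H19 was most like C1qtnf3 (0.86), Fbn2 (0.82), which encodes a microfibril protein, and 5031425E22Rik (0.82), and Mest was most like H19 (0.79), C1qtnf3 (0.77) and Mdfi (0.75). Grb10 was most like Slc2a13 (0.86), Nedd4 (0.86), which encodes a ubiquitin ligase known to bind Grb10, and Adgra3 (0.85). For Cdkn1c (Ngef, 0.63, Rai2, 0.62, and Hs3st3b1, 0.62) coefficients were weaker and counts sparse. No genes are given for Igf2, since the sums cross the gene lists.

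Other imprinted genes served as a comparison. Of a list of 35, 17 could be tested post-fracture, and 3 were called, all lower, where 1.99% of all genes were called higher and 4.56% lower. Those not called went both ways, from -2.1 for Zrsr1 (edgeR adjusted p = 0.131) to 4.27 for Usp29 (adjusted p = 0.167), both named after their values were seen. The median log2 fold change of the 17 was 0.10, against 2.09 for the members. The member median includes H19 and Mest, which entered the test through their post-fracture counts. Both sets were chosen with earlier results of these data known, so these medians are a description. Gatm, an enzyme of creatine synthesis, was at 486, 69.9, 0, 5.84, 1.17 and 1.17 CPM in stromal nuclei, lower in every post-fracture library (-6.82, SE 0.86, edgeR adjusted p = 0.00337). Dcn, the matrix proteoglycan decorin and imprinted in placenta, was at 867, 2248, 155, 446, 293 and 259 CPM (-2.41, SE 0.44, adjusted p = 0.015), and the phosphatase gene Inpp5f was also called lower (-1.6, adjusted p = 0.0331). At day 3, 15 of the list could be tested and Gatm, Dcn and Ppp1r9a, an actin-binding protein gene (-2.06, adjusted p = 0.0193), were called lower.

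Of 13 genes of IGF signalling, 12 were tested post-fracture, and 1 was called higher and 2 lower, where 1.99% of all genes were called higher and 4.56% lower. Igfbp6 was at 123, 239, 2.21, 7.3, 9.53 and 2.35 CPM (-4.85, SE 0.49, edgeR adjusted p = 0.00151) and Igfbp5 at 319.6, 623, 24.3, 52.1, 87.9 and 68.7 CPM (-2.91, SE 0.46, adjusted p = 0.00883). Both encode proteins that bind IGFs, and both fell. The other IGF-binding protein genes tested had positive values that did not pass the test, 0.87 for Igfbp3 (adjusted p = 0.599), 0.62 for Igfbp4 (adjusted p = 0.532) and 0.38 for Igfbp7 (adjusted p = 0.468). Pappa, a protease that cleaves IGF-binding proteins, rose from 127 and 72.3 CPM in uninjured to 751, 385, 588 and 407 CPM (2.57, SE 0.48, adjusted p = 0.0161). The same 3 genes were called in the same directions at day 3, among 11 tested, where 3.8% of all genes were called higher and 5.17% lower. The receptor gene Igf1r was at 630.4, 668, 431, 807, 634 and 731 CPM (0.07, adjusted p = 0.936). It and the 3 IGF-binding protein genes that were not called were named after their values were seen.

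Genes of fetal growth programmes other than the members numbered 12, of which 7 were tested post-fracture and 1, the cell cycle factor E2f3, was called higher, at 26.3, 43.9, 212, 247, 182 and 160.4 CPM (2.47, SE 0.34, edgeR adjusted p = 0.00457), where 1.99% of all genes were called higher. Igf1 was at 78.8, 318, 214, 426, 952 and 559 CPM (1.46, SE 0.68, adjusted p = 0.246). At day 3, 6 were tested and E2f3 was again called higher (2.55, adjusted p = 0.00484), as were 3.8% of all genes. The median log2 fold change of the 7 genes post-fracture was 1.11 and that of the IGF signalling genes 0.14.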

How the data were processed

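Single-nucleus RNA-seq was measured in 6 libraries of sorted nuclei. The deposited files hold raw UMI counts per gene and barcode, which the authors made with Cell Ranger (6.0.0 for uninjured replicate 1 and days 5 and 7, 7.1.0 for the others), counting intronic and exonic reads against mm10. The annotation releases are not given in the sources used here, and the protocol text also names a human build, but every gene identifier is a mouse one. Whole libraries held 1499281 to 29796296 UMIs, and 0 to 7 barcodes were shared between any pair of them.

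The members and gene lists were chosen with earlier results of these data known. Following the study's limits, 8205 barcodes were kept that had 200 to 5000 genes and whose UMIs were less than 2% mitochondrial and less than 1.5% ribosomal, and 2076 muscle nuclei were removed. Nuclei were clustered with Seurat 5.3.0 (2000 integration features, 20 components) without the members, lists and markers, and clusters were named from the markers. Scrublet marked 78 nuclei as doublets (0.951%), which were kept, with their removal as an alternative. UMIs were summed per library and population, over the 30406 shared genes, and tested with edgeR 4.0.16 (quasi-likelihood, filterByExpr, TMM, Benjamini-Hochberg adjusted p under 0.05). Each test was run on simulated counts with known log2 fold changes of 1, 2 and 3. The post-fracture test called 0, 46.9 and 92.4% of the changed genes. At day 3 the shares were 0, 40.6 and 92.8%, and for the difference from endothelial-like nuclei 0, 62.2 and 89.8%. Shares used nuclei thinned to 500 or 1000 UMIs. Alternatives covered DESeq2 1.42.0, size factors, filters, clustering, nuclei summed, gene lists, Cell Ranger versions and each library left out. All members were reported. From each gene list up to 4 called genes were named, by fold change, or, with fewer than 2 called, the 2 with the highest mean level, and for each member with at least 50 stromal UMIs, Igf2 excepted, the 3 genes most correlated with it. R 4.3.3 and Python 3.11.15 were used.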

Additional observations from a re-analysis of the deposited data

Results flagged for a closer look

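The change of Grb10 after fracture differed between stromal and endothelial-like nuclei by the test of the difference itself, by 1.21 on the log2 scale (SE 0.31, edgeR adjusted p = 0.0251). The call was lost without either uninjured library, day 5 or day 7.

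H19 was above the uninjured level in muscle nuclei, which the comparisons of the report left out and only the alternative with all nuclei included. The lowest post-fracture library had 41.1 CPM of it and the highest 152, where the uninjured libraries had 8.58 and 6.5 CPM. 

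At day 7, 2105 of the 3448 barcodes formed 3 unnamed clusters under a looser filter, with a median of 15.4% ribosomal UMIs. The rule that picked them (unnamed, at least 80% from day 7) was chosen after seeing the data. They held 168 CPM of Plagl1, 212 CPM of Mest and 75.8 CPM of Cdkn1c, above the uninjured stromal levels of these genes, next to 6.64 CPM of H19 and 5.54 CPM of Zim1. Their leading genes included Ttr (3413 CPM), Stmn1 (1783 CPM), Sox11 (1422 CPM) and Lhx2 (487 CPM). In day 7 stromal nuclei these were at 2.35, 2.94, 4.70 and 1.76 CPM. Htr2c, Otx2, Dcc and Dab1 were also among the leading genes. The cell type and source of these barcodes were not tested, so their levels are not levels of callus cells. Of these barcodes, 18 passed the nucleus filter of the report.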

How the results depend on the processing

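Post-fracture, 1 member and 767 genes were called. The genes tested differed between fits, with 11718 here and with DESeq2, 10856 without the day 3 libraries and 12231 with list A. For the remaining alternatives the number tested is not given, so their counts of members cannot be set beside a share of all genes. Cdkn1c was not called in any post-fracture fit, so the 8 members called without the filter include Igf2 or Dlk1. Both were near the limit of detection, and Igf2 cannot be compared across the gene lists. The Cell Ranger 6.0.0 libraries are uninjured replicate 1 and days 5 and 7. That fit has 1 uninjured library, with 0 stromal UMIs of H19 and Mest, and it crosses the gene lists. Its spread comes from days 5 and 7 as if they were replicates, so its count of members is weak evidence. DESeq2 called 5 members and 1196 genes, no filter on low counts 8 and 2044, the Cell Ranger 6.0.0 libraries 6 and 1152, and the fit without the day 3 libraries 7 and 1273. List A, with 1 fractured library, called 3 members and 1090 genes, and the SSPC-like, fibroblast-like and IIFC-like nuclei 2 and 864. Leaving out 1 library gave 0 to 2 members and 211 to 884 genes, 211 without uninjured replicate 1. At day 3, where 1 member and 895 genes were called, 3 members were called without the filter, with list A and with all 6 libraries in 1 fit, and 0 in fibroblast-like nuclei alone, where H19 was too low to be tested. Genes called were 1431 without the filter, 1090 with list A, 1077 with all 6 libraries, 326 with all nuclei and 475 in fibroblast-like nuclei. Leaving out 1 library gave 0 to 3 members and 661 to 1090 genes. For the difference from endothelial-like nuclei it gave 0 to 1 members and 338 to 555 genes, against 1 and 517.

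Signs turned post-fracture for Cdkn1c in all non-myogenic nuclei (0.37), in all nuclei (1.47) and without uninjured replicate 1 (0.048, the highest with a library left out, the lowest being -1.53), for Peg3 in the SSPC-like, fibroblast-like and IIFC-like nuclei (-0.048), fibroblast-like nuclei (-0.14), list A (-1.77) and Cell Ranger 7.1.0 (-1.2), and for Zim1 in list A (-2.97) and Cell Ranger 7.1.0 (-1.37), where day 3 is the only fracture time. At day 3 Grb10 turned in all non-myogenic (-0.17) and all nuclei (-0.068), and Mest in the difference from endothelial-like nuclei without uninjured replicate 2 (3.82, the lowest with a library left out being -2.11). H19 kept its sign in every fit that tested it, and missed the threshold post-fracture in all non-myogenic nuclei (adjusted p = 0.0579) and fibroblast-like nuclei. With 1 mitotic gene as the limit for cycling, 2 members were higher in cycling nuclei of at least 3 libraries, against 1. The cause of these differences was not tested. The fibroblast-like nuclei and the fit without the shallow cluster were added after seeing the data. No paired analysis was possible because the labels number no replicates, and the numbers used here only name uninjured and day 3 libraries. The block in the difference from endothelial-like nuclei joins populations of the same library. In the main fits, Igf2 and Dlk1 were too low to be tested in all 3 comparisons, Zim1 at day 3, and Cdkn1c at day 3 and for the difference from endothelial-like nuclei.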
